A study of Mus musculus with 20 samples.

Results

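In mouse hindlimb muscle, 109 of the 21844 genes in the deposited table had lower RNA in libraries labelled as muscle Bmal1 knockout than in vehicle libraries, both in sedentary and in treadmill-trained mice. They were chosen by measured values. For each gene, CPM (counts scaled to a common total of each library) were taken, and log2((knockout median + 0.5)/(vehicle median + 0.5)) had to be at most -0.8 among the sedentary and again among the trained libraries, with a vehicle sedentary median of at least 2 CPM. A list of 16 genes, most of them core clock genes, was left out by name. Of the 117 genes that met the limits, 8 were on that list: Nr1d2, Tef, Per2, Per3, Dbp, Bhlhe40, Smpdl3b and Gm10032. The differences between knockout and vehicle that chose the 109 genes are therefore given as a description, with no test.

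The 20 libraries form 4 groups of 5, and every one is labelled with the genotype Cre+:iMSBmal1 fl/fl, so the vehicle mice carry the floxed Bmal1 alleles and the muscle Cre as well. The groups are Vehicle Control and iMSBmal1KO Control, both sedentary, and Vehicle Exercise Trained and iMSBmal1KO Exercise Trained, both with 6 weeks of daily treadmill running. The labels name neither the promoter that drives Cre, nor the age or sex of the mice, nor whether the replicates are separate mice, and p-values here measure the spread between these samples, which may be technical. One label field and the series design name the gastrocnemius and another field names the tibialis anterior, and collection is given as 48 hours post in the labels and 47 hours after the last bout in the series design.

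BMAL1 pairs with CLOCK or NPAS2 to form a transcription factor of the circadian clock that binds E-box sequences, and the PER and CRY proteins it induces feed back to inhibit it. The nuclear receptors REV-ERB and ROR act through a response element called the RORE, and the PAR bZIP factors DBP, TEF and HLF act through D-boxes, so one clock drives outputs with different timing. In skeletal muscle this clock is known for daily rhythms in glucose uptake and oxidation, lipid storage, amino acid handling and sarcomere upkeep. The collection label, in hours, is the same for all libraries and is not a time of day. A level here is the level at collection and not a daily mean.

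The promoters of the genes were read from RefSeq (GRCm38.p6), as windows from 250 bases before to 50 bases after each transcription start. Of the 109 genes, 66 were matched, with 94 windows. The E-box CACGTG, which reads the same on both strands, was in the windows of 10 of the 66 (15.2%), against 11.6% of the 10304 matched genes among those tested and 8.09% of all 27025 genes in the promoter table. The related letters CACGTT, searched on both strands, were found for 7 of 66 (10.6%, against 6.35% of matched tested genes). A D-box was found for 3 (4.55% against 0.893%, and for 0 of the 42 matched genes when the limit of the rule was -1) and the RORE core TAGGTCA on either strand for 1 (1.52% against 2.25%). Of the 16 genes left out by the rule, 13 were matched and 6 of these held CACGTG (46.2%). A match is a description of letters in a window, and binding was not measured.

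The 10 genes with CACGTG were Nkain1, Kcnab1, Met, Rhobtb1, Lonrf3, Slc16a1, Ntsr2, Coq10b, 5930430L01Rik and 2610002M06Rik. The upstream 250 bases are shown for some of these genes, 5′ to 3′ on the strand of the gene, with the E-box in capitals. Genes shown are protein coding and have no symbol ending in Rik. They have a vehicle sedentary median of at least 10 CPM and the motif before the start. They were chosen after the values were seen, to show how the same 6 letters sit in promoters of unlike sequence and at distances from -200 to -45.
Coq10b (chr1:55052520-55052769, plus strand): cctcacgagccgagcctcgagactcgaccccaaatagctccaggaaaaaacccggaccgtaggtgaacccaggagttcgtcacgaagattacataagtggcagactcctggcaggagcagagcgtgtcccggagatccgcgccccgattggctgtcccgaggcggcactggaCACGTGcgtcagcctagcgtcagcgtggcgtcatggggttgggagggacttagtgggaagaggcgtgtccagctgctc
Kcnab1 (chr3:65187853-65188102, plus strand): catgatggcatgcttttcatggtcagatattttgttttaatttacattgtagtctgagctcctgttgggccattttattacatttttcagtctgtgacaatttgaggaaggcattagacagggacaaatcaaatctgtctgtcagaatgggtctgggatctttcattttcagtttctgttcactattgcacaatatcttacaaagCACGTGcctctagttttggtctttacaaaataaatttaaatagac
Slc16a1 (chr3:104638414-104638663, plus strand): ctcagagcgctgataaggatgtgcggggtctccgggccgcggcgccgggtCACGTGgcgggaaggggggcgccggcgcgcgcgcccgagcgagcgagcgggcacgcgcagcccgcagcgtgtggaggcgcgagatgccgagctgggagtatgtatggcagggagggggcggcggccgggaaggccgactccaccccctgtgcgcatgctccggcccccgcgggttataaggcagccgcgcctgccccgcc
Nkain1 (chr4:130574037-130574286, minus strand): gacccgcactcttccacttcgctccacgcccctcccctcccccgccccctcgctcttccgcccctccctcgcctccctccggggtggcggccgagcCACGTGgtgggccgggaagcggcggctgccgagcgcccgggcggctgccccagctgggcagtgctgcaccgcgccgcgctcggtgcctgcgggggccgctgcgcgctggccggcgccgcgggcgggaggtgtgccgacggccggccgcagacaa
Met (chr6:17463707-17463956, plus strand): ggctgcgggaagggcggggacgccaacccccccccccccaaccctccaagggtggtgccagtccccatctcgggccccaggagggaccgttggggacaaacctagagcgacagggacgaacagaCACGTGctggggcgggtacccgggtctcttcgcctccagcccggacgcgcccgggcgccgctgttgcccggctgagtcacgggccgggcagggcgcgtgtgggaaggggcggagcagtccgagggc
Rhobtb1 (chr10:69212407-69212656, plus strand): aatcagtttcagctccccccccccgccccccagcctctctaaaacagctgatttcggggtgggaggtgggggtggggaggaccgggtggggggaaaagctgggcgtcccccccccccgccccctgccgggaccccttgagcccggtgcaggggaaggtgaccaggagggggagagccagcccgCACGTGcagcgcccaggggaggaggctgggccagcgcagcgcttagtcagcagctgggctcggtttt
In Coq10b the motif starts at -78 from the transcription start, in Kcnab1 at -45, in Slc16a1 at -200, in Nkain1 at -154, in Met at -126 and in Rhobtb1 at -67. Each of these 6 windows holds 1 CACGTG in its upstream part. Kcnab1 has a further window in the table, also with 1 CACGTG, which is not shown because its start part was not found near the start of a GENCODE M21 transcript.

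Before the levels are read, 3 facts about the libraries matter. Totals of the estimated counts ran from 10610333 to 19153527. Squared differences between knockout trained libraries 1 and 4 were 1.90 times those of sampling noise at low counts and 2.38 times at high counts. For libraries 3 and 5 these were 2.01 and 1.75 times. In every other pair of libraries the value at high counts was at least 2.31 times that at low counts. Knockout trained libraries 1 and 4, and libraries 3 and 5, were therefore each counted as 1 sample, which leaves n = 3 in that group. Vehicle trained library 2 stood apart: it was more than 2-fold below the median of the other 4 vehicle trained libraries in 19.8% of all 14359 tested genes and more than 2-fold above it in 10.6%. The targeted gene, listed under its earlier symbol Arntl, did not fall with the knockout label and was higher with it in sedentary muscle. It had 6.79 ± 0.890 CPM (SD, n = 5) in vehicle sedentary and 13.2 ± 3.28 (SD, n = 5) in knockout sedentary libraries. The groups did not overlap, at 5.68 to 7.93 and 10.96 to 18.9 CPM, and the cause of the higher level was not tested. In trained muscle it had 10.9 ± 4.45 CPM (SD, n = 3) in knockout libraries, 6.32 to 6.68 in 4 vehicle libraries and 132 in vehicle trained library 2. A count over a whole gene includes reads outside the deleted part, so this gene does not check the labels, and "knockout" below means the libraries labelled so.

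Hindlimb muscle was recognisable in every library: 6 fibre genes (Acta1, Myh4, Ckm, Mylpf, Tnnt3 and Pvalb) summed to 63357 to 87026 CPM, except for 47601 in vehicle trained library 2. None of 10 marker lists for muscle fibres and other cell types held any of the 109 genes. The 5 smooth muscle and pericyte markers ran higher with the knockout label, at 413 to 509.7 CPM in vehicle and 511 to 659 in knockout sedentary muscle, and at 358 to 524 and 512 to 619 in trained muscle. The 5 satellite cell markers summed to 35.4 to 46.0 and 45.7 to 57.3 CPM in sedentary muscle, and to 30.8 to 42.6 and 37.5 to 47.0 in trained muscle. Their part in the levels of the 109 genes was not tested. In bulk RNA, fewer cells of a type and less RNA per cell cannot be told apart.

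The middle of the 109 genes was lower in every knockout sample. Relative to each gene's vehicle sedentary median, the middle gene stood at -1.20 to -1.32 on the log2 scale in the 5 knockout sedentary samples and at -1.35 to -1.49 in the 3 knockout trained samples. It stood between -0.19 and 0.05 in vehicle trained libraries 1, 3, 4 and 5. Of the 109 genes, 90 to 105 were at or below -0.8 in each knockout sample and 0 to 6 in each of those vehicle libraries and the vehicle sedentary ones. Vehicle trained library 2 lay apart from its group, with the middle gene at -1.06 and 62 genes at or below -0.8. Its quartiles ran from -2.13 to 0.28, wider than in any other sample.

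**Figure D1:**
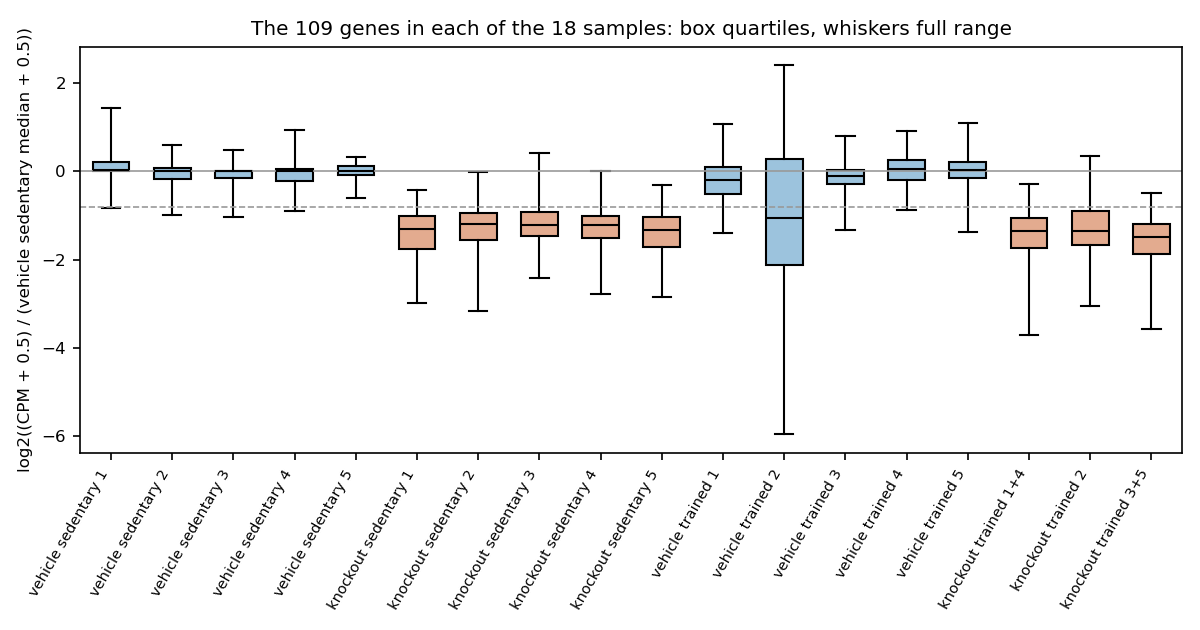
Log2 of (CPM + 0.5) relative to each gene's vehicle sedentary median + 0.5, for the 109 genes in each of 18 samples (boxes are quartiles with the median, whiskers the full range, the dashed line the limit of -0.8). Knockout boxes lie below the limit with medians of -1.20 to -1.49, and vehicle trained library 2 spreads from far below to above 0.

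The choice of genes fixes these directions and a least size, and it favours groups that stand apart. The values below are therefore a description of the chosen genes. The median log2 ratio was -1.21 in sedentary muscle (range -2.54 to -0.80) and -1.29 in trained muscle (range -3.21 to -0.82), against 0.06 and -0.08 for all 12261 genes with the same minimum level. At least 2-fold lower were 84 genes in the sedentary and 87 in the trained state, 70 of them in both. At least 4-fold lower were 9 and 12 genes, 8 of them in both. The fall was larger in trained muscle for 64 genes and larger in sedentary muscle for 45. Every knockout sample lay below every vehicle sample for 97 of 109 genes in sedentary muscle (3.77% of all tested genes) and for 54 in trained muscle (3.95% of all tested genes). Without vehicle trained library 2 the trained count was 99 (8.48% of all tested genes). With edgeR's quasi-likelihood test, 69 of the 109 were called lower in sedentary muscle (1.31% of all tested genes) and 59 in trained muscle (1.3%), and without vehicle trained library 2 these were 106 (3.84%) and 97 (3.64%). The rule used these contrasts, so nothing is read from those counts. Counts without overlap given below for groups of genes are parts of the 97, 54 and 99, and describe no trait of a group. Counts called over gene lists are also given below. Of all 14359 tested genes, the test called 188 lower and 146 higher in sedentary muscle, and 187 lower and 287 higher in trained muscle. Without vehicle trained library 2 it called 551 lower and 451 higher, and 522 lower and 718 higher. The lists were not tested against these counts. Where a list holds any of the 109, its lower calls can include genes that the rule chose for being lower.

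Genes at the edge of the rule had values close to those it left out. Just inside were Slc12a2 (log2 ratio -0.80 sedentary, -1.36 trained), Ifit3b (-0.81 and -1.37) and Crim1 (-0.82 and -0.88). Just outside were Gm20735 (-0.79 and -1.002), the receptor Gpr155 (-0.78 and -1.11) and the nuclear receptor Nr4a3 (-0.78 and -0.78).

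**Figure D2:**
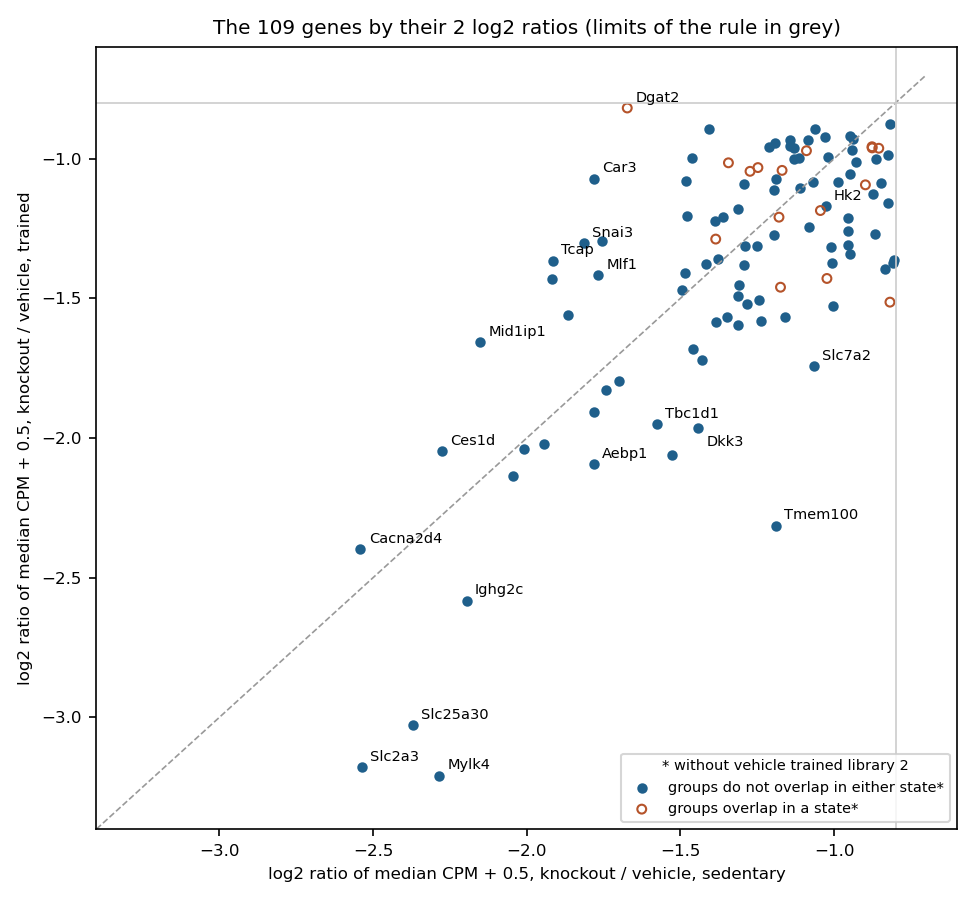
Log2 ratio of median CPM + 0.5, knockout over vehicle, in sedentary (x axis) and trained muscle (y axis) for the 109 genes, with the limits of the rule in grey and the line of equal ratios dashed. Slc2a3, Slc25a30, Mylk4, Cacna2d4 and Ighg2c are among the lowest ratios in both states, Tmem100 fell further in trained and Dgat2 and Car3 further in sedentary muscle.

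Genes of glucose uptake, its first step and lactate transport included Slc2a3, Tbc1d1, Hk2 and Slc16a1. Slc2a3 encodes the glucose transporter GLUT3, a high-affinity carrier best known from neurons, and of the 109 genes it stood farthest inside the limit by the larger of its 2 log2 ratios. In sedentary muscle its level was 27.9, 19.2, 19.8, 18.2 and 19.5 CPM in vehicle libraries 1 to 5 and 2.06, 3.65, 3.52, 2.95 and 2.30 in knockout libraries 1 to 5. Trained vehicle libraries held 16.3, 11.4, 20.2, 22.3 and 20.5 and trained knockout samples 2.32, 2.91 and 1.19. Even the lowest vehicle sample, trained library 2, lay far above the highest knockout sample, so the groups did not overlap in either state. The medians were 5.803-fold lower in sedentary and 9.05-fold lower in trained muscle, and the fitted log2 changes were -2.92 (SE 0.234) and -3.07 (SE 0.290).

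Tbc1d1, a Rab GTPase-activating protein that restrains movement of the GLUT4 transporter to the surface until it is phosphorylated, showed the same separation. Vehicle sedentary libraries held 107, 92.5, 64.8, 84.3 and 71.05 CPM and knockout sedentary ones 19.8, 29.7, 35.1, 27.8 and 27.9. Vehicle trained libraries held 65.9, 35.3, 97.7, 78.2 and 82.1 and knockout trained samples 27.4, 18.5 and 19.4. The groups did not overlap in either state, and vehicle trained library 2 was the lowest of the vehicle libraries. The median was 2.98-fold lower in sedentary and 3.87-fold lower in trained muscle.

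Hk2, the muscle hexokinase that phosphorylates glucose on entry, fell less steeply. Its level was 582, 525, 434, 412 and 505 CPM in vehicle and 246, 248, 230.4, 252 and 301 in knockout sedentary muscle. After training, Hk2 stood at 321, 1729, 478, 498 and 435 in vehicle and 258, 186 and 210.1 in knockout samples. The groups did not overlap, the ratios were 2.04-fold and 2.25-fold, and vehicle trained library 2 was here the highest sample of all. Slc16a1, the monocarboxylate transporter MCT1 that carries lactate, was 2.03-fold and 1.99-fold lower. It ran from 68.2 to 91.2 CPM in vehicle and 31.5 to 45.9 in knockout sedentary muscle, and from 41.7 to 121 and 29.6 to 36.1 in trained muscle. Of a list of 49 carbohydrate genes, all tested, 4 were among the 109 (Slc2a3, Tbc1d1, Hk2 and Slc16a1). Over that list the test called 3 lower and 0 higher in sedentary muscle, with a median log2 change of -0.22 against 0.01 for all tested genes. In trained muscle it called 4 lower and 1 higher, with a median of -0.13 against -0.03. The 3 called lower in sedentary muscle (Slc2a3, Tbc1d1 and Slc16a1) and the 4 in trained muscle are the chosen genes themselves. These lower calls are therefore no separate support. Without vehicle trained library 2 the counts were 8 lower and 0 higher in sedentary muscle, and 6 lower and 2 higher in trained muscle.

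**Figure D3:**
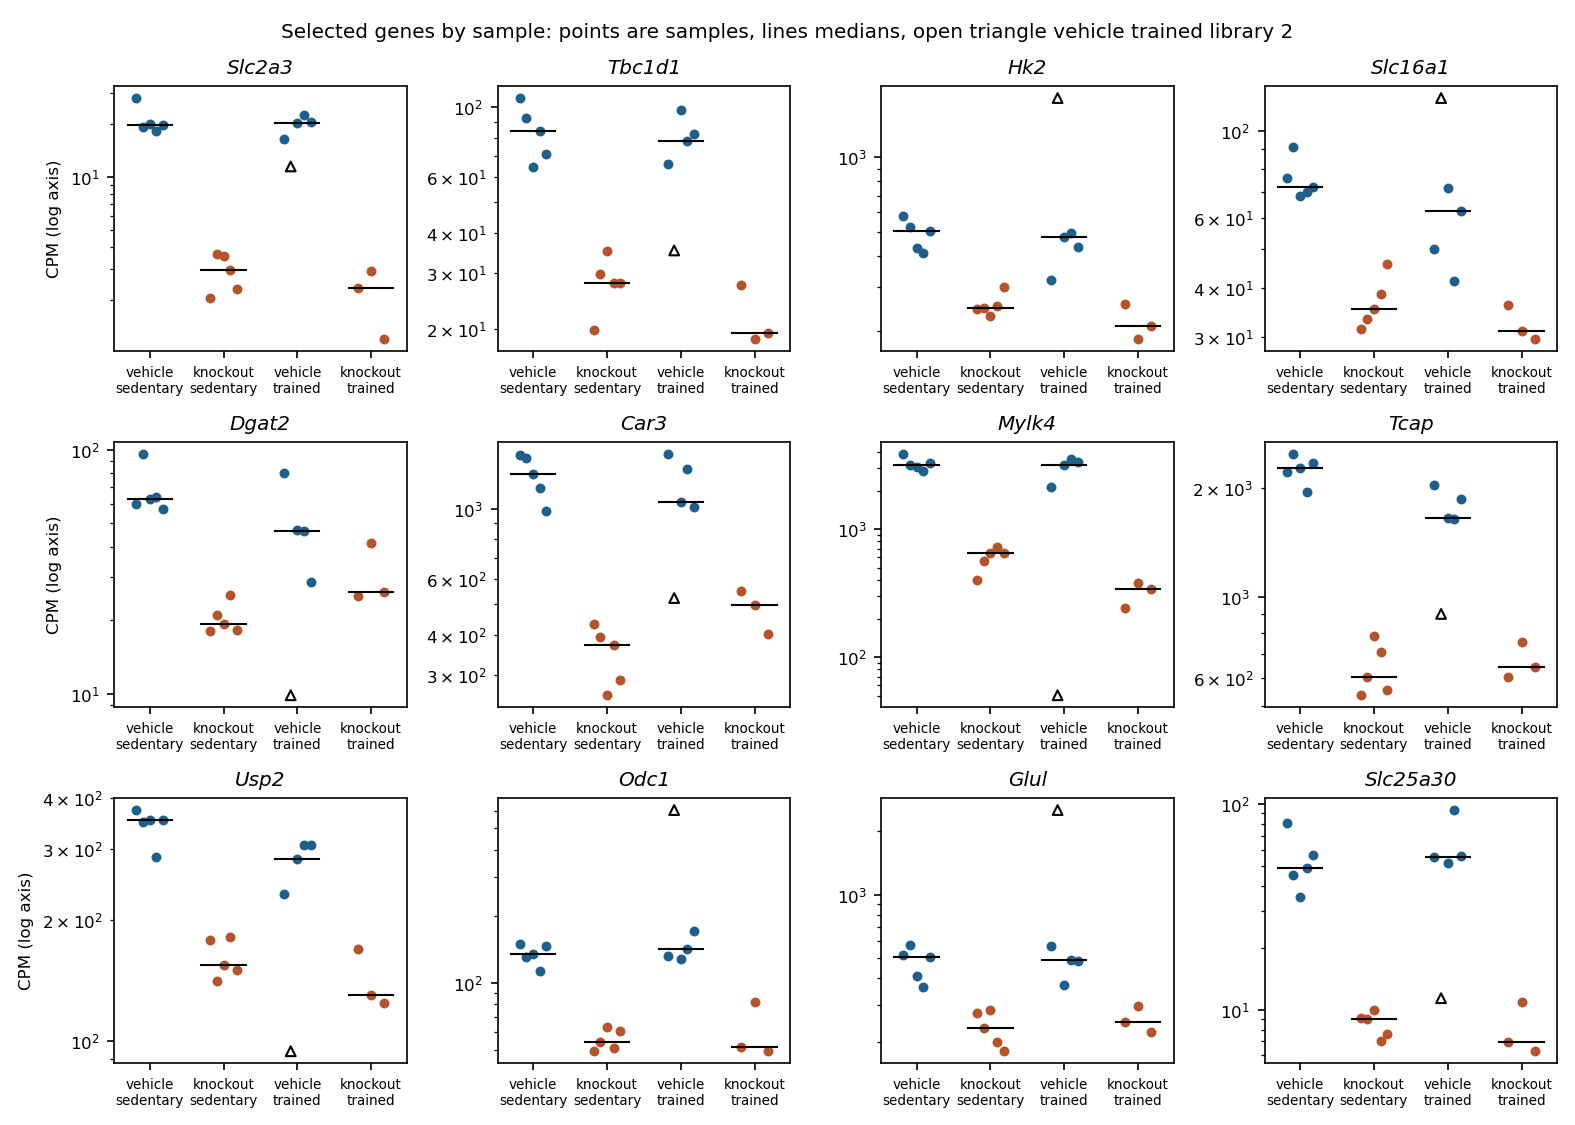
CPM on log axes for 12 of the 109 genes in each of 18 samples (points are samples, lines group medians, the open triangle vehicle trained library 2). Knockout samples lie below the vehicle samples in both states apart from vehicle library 2 and, for Dgat2, vehicle library 5. Library 2 is the highest sample for Hk2, Slc16a1, Odc1 and Glul and the lowest for Mylk4, Usp2 and Dgat2.

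Mitochondrial, redox and acid-base genes numbered 5, led by Slc25a30, a carrier of the inner mitochondrial membrane. It had 80.9, 45.0, 35.2, 48.8 and 56.3 CPM in vehicle and 9.07, 9.04, 9.94, 7.04 and 7.59 in knockout sedentary muscle. The trained levels of Slc25a30 were 55.2, 11.4, 51.7, 93.4 and 55.9 in vehicle and 6.98, 10.9 and 6.27 in knockout samples. Library 2 of the vehicle trained group sat just above the highest knockout sample, and the other vehicle libraries stood well above both. The medians were 5.17-fold and 8.16-fold lower, with fitted log2 changes of -2.70 (SE 0.366) and -2.67 (SE 0.447).

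Car3, carbonic anhydrase 3, an abundant enzyme of slow fibres and fat that hydrates carbon dioxide, fell more in sedentary muscle. Its level was 1472, 1443, 1284, 1166 and 987 CPM in vehicle and 432, 393, 258, 373 and 288 in knockout sedentary muscle. In trained muscle Car3 reached 1487, 523, 1048, 1329.9 and 1014 CPM in vehicle and 551, 499 and 403 in knockout samples. The sedentary groups stood well apart, while in trained muscle vehicle library 2 fell among the knockout samples. The median was 3.44-fold lower in sedentary and 2.10-fold lower in trained muscle. Oplah, the 5-oxoprolinase of glutathione turnover, was 2.76-fold and 2.00-fold lower. Tst, the thiosulfate sulfurtransferase rhodanese, was 2.29-fold and 1.93-fold lower, and Coq10b, a coenzyme Q-binding protein with an upstream E-box shown above, 1.77-fold and 2.23-fold. For all 5 of these genes the sedentary groups did not overlap, against 3.77% of all tested genes.

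Genes for handling lipids and esters numbered 7. Ces1d, a carboxylesterase that hydrolyses triglycerides and drug esters, had 50.5, 65.2, 61.3, 56.4 and 52.8 CPM in vehicle and 9.12, 17.9, 14.2, 7.82 and 11.2 in knockout sedentary muscle. Among trained samples, Ces1d had 89.8, 7.60, 51.6, 90.2 and 59.3 in vehicle and 9.80, 23.6 and 14.5 in knockout muscle. The sedentary groups did not overlap, and in trained muscle vehicle library 2 was below every knockout sample while the other vehicle libraries were above them. The medians were 4.85-fold and 4.13-fold lower. The summed level of 6 adipocyte markers ran from 223 to 462 CPM in vehicle and from 305 to 381 in knockout sedentary muscle, and from 170 to 1058 and from 370 to 699 in trained muscle. Its part in the levels of Ces1d, Dgat2 and Car3 was not tested.

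Dgat2, which makes triglyceride from diacylglycerol, fell less in trained than in sedentary muscle by the widest margin of the 109 (0.85 between its 2 log2 ratios). It had 60.1, 95.9, 62.8, 63.8 and 56.9 CPM in vehicle and 17.98, 21.1, 19.3, 25.5 and 18.3 in knockout sedentary muscle. Trained vehicle libraries held 80.0, 9.84, 46.9, 46.2 and 28.8 and trained knockout samples 25.1, 41.3 and 26.2. The sedentary groups did not overlap, and the trained groups did, with vehicle library 2 below every knockout sample and library 5 among them. The median was 3.19-fold lower in sedentary and 1.76-fold lower in trained muscle. Mid1ip1, a partner of acetyl-CoA carboxylase in fatty acid synthesis, was 4.45-fold and 3.15-fold lower, and the monoacylglycerol lipase Abhd6 2.19-fold and 2.00-fold. The sphingosine 1-phosphate exporter Spns2, the lipid transfer protein gene Vps13a and the phospholipase D family member Pld5 fell within the range of log2 ratios of the group, -2.28 to -0.86 sedentary and -2.05 to -0.82 trained. Of the lipid list, 71 genes were tested and Dgat2 was its 1 gene among the 109. The test called 2 lower and 2 higher in sedentary muscle and 3 lower and 7 higher in trained muscle, with median log2 changes of -0.01 and -0.03. Leaving out vehicle trained library 2 gave 4 lower and 7 higher, and 4 lower and 10 higher. Of all 14359 tested genes, 146 were called higher in sedentary and 287 in trained muscle, and 451 and 718 without that library.

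Polyamine and amino acid genes were 3, and all had their highest level in vehicle trained library 2. Odc1, ornithine decarboxylase, the rate-limiting enzyme of polyamine synthesis, had 149, 131, 135, 114 and 147 CPM in vehicle and 49.1, 54.1, 63.1, 50.6 and 60.4 in knockout sedentary muscle. After training, Odc1 stood at 133, 604, 128, 142 and 172 in vehicle and 51.3, 81.6 and 49.3 in knockout samples. The groups were apart in both states, 2.48-fold and 2.74-fold by their medians.

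Glul, glutamine synthetase, which joins ammonia to glutamate, had 515, 574, 412, 365 and 503 CPM in vehicle and 273, 232, 282, 199.7 and 180.1 in knockout sedentary muscle. The trained levels of Glul were 567, 2518, 369.8, 487 and 483 in vehicle and 247, 297 and 222 in knockout samples. No knockout sample reached a vehicle sample, and the medians were 2.16-fold and 2.00-fold lower. Slc7a2, a cationic amino acid transporter that imports arginine, lysine and ornithine, had 111, 111, 119, 97.0 and 139 CPM in vehicle and 57.0, 52.6, 43.8, 50.3 and 58.5 in knockout sedentary muscle. In trained muscle Slc7a2 reached 78.6, 291, 152, 135 and 135 CPM in vehicle and 50.7, 35.7 and 38.9 in knockout samples. Its fall was larger in trained (3.35-fold) than in sedentary muscle (2.09-fold), with no overlap in either. A Slc7a2 transcript was 100% identical to one of Gm26584 over 91.5% of its length, so the count of Slc7a2 is uncertain. Of the amino acid and nitrogen list, 30 genes were tested, with 2 called lower and 2 higher in sedentary muscle and 4 lower and 1 higher in trained muscle, and median log2 changes of -0.09 and -0.31. Without vehicle trained library 2 the direction of this list turned in trained muscle, with 7 lower and 8 higher and a median of 0.06, while in sedentary muscle 8 were lower and 3 higher with a median of -0.08.

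Retrocopies of Odc1 and Glul, reverse-transcribed messages inserted elsewhere in the genome, account for 5 more of the 109 genes. The start of the coding sequence is shown for each, read from GENCODE M21 transcripts, since a short read from a shared stretch matches more than one of them. Capitals mark bases that differ from the parent gene.
Odc1: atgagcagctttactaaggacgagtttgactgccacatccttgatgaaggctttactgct
Gm17709: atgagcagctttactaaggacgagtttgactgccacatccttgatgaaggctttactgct
Gm7993: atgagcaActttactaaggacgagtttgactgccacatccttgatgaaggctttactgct
Gm9115: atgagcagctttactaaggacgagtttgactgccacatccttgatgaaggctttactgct
Gm9260: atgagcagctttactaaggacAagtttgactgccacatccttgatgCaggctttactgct
Glul: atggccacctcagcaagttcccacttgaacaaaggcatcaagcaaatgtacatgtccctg
Glns-ps1: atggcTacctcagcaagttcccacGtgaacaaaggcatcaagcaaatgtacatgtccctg
Over these 60 bases Gm17709 and Gm9115 were identical to Odc1, Gm7993 differed at 1 base, Gm9260 at 2, and Glns-ps1 differed from Glul at 2. Over the aligned transcripts the identity to the parent was 97.8% for Gm17709, 96.7% for Gm9115, 95.8% for Gm7993, 95.1% for Gm9260 and 96.8% for Glns-ps1. Gm7993 ran from 12.8 to 14.8 CPM in vehicle and 4.71 to 7.75 in knockout sedentary muscle. Vehicle trained library 2 was above the other 4 vehicle trained libraries for all 5 retrocopies, as it was for Odc1 and Glul. The counts of parents and copies are uncertain, because the way reads matching both were assigned is not given in the sources used here, so these 7 genes are not 7 separate measurements.

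Genes of the sarcomere, of muscle kinases and of protein turnover numbered 10. Mylk4, a member of the myosin light chain kinase family expressed in striated muscle, had 3853, 3159, 3065, 2865 and 3257 CPM in vehicle and 399, 564, 648, 721 and 654 in knockout sedentary muscle. Among trained samples, Mylk4 had 2145, 50.3, 3146, 3519.7 and 3352 in vehicle and 240.0, 382 and 341 in knockout muscle. Vehicle trained library 2 was far below all other samples, knockout ones included, and the remaining vehicle libraries did not overlap the knockout samples. The median was 4.87-fold lower in sedentary and 9.24-fold lower in trained muscle, the lowest trained ratio of the 109, and the fitted log2 changes were -2.50 (SE 0.586) and -2.85 (SE 0.731). Without vehicle trained library 2 the fitted trained change was -3.16 (SE 0.247).

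Tcap, telethonin, which caps titin at the Z-disc, had 2219, 2486, 2271, 1957 and 2342 CPM in vehicle and 537, 602, 785, 707 and 556 in knockout sedentary muscle. Trained vehicle libraries held 2048, 900.5, 1657, 1645 and 1868 and trained knockout samples 604, 752 and 644. Every vehicle sample, including library 2, lay above every knockout sample. The fall of the median was 3.77-fold in sedentary and 2.58-fold in trained muscle.

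Usp2, a deubiquitinase known as a clock output in many tissues, had 374, 348, 353, 286 and 354 CPM in vehicle and 178, 141, 154, 181 and 149.97 in knockout sedentary muscle. After training, Usp2 stood at 232, 94.3, 282, 306 and 307 in vehicle and 169, 130.3 and 125 in knockout samples. Library 2 of the vehicle trained group was the lowest sample of all, and the others were above every knockout sample, with medians 2.29-fold and 2.16-fold lower. Sorbs3 (vinexin), an adaptor that binds vinculin, was 3.34-fold and 3.55-fold lower, and Sorbs2, a Z-disc adaptor of the same family, 2.01-fold and 2.88-fold. Sorbs3 had 77.2, 72.0, 70.6, 56.0 and 66.8 CPM in vehicle and 19.7, 22.1, 28.1, 20.8 and 17.8 in knockout sedentary muscle. The trained levels of Sorbs3 were 55.3, 136, 63.8, 73.9 and 64.6 in vehicle and 18.6, 21.9 and 16.5 in knockout samples. The Sorbs3 groups were apart in both states, with vehicle trained library 2 on top. Mlf1 was 3.40-fold and 2.67-fold lower, and Mettl21e, a lysine methyltransferase of muscle, 2.61-fold and 3.00-fold. Dtnb, beta-dystrobrevin, was 1.93-fold and 1.89-fold lower and Lonrf3, which has an E-box in its window, 2.16-fold and 2.15-fold. In sedentary muscle the groups did not overlap for any of the 10 genes, against 3.77% of all tested genes without overlap. Of the contractile and sarcomere list, 47 genes were tested and Mylk4, Tcap and Usp2 were among the 109. The test called 3 lower and 3 higher in sedentary and 2 lower and 3 higher in trained muscle, with median log2 changes of -0.04 and 0.12. The lower calls were Mylk4, Tcap and Usp2 in sedentary and Mylk4 and Tcap in trained muscle, all chosen by the rule for being lower. They are no separate support. Leaving out vehicle trained library 2 gave 5 lower and 4 higher, and 3 lower and 6 higher.

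Cep85l, a centrosomal protein gene, had 188, 135, 173, 131 and 173 CPM in vehicle and 58.5, 62.7, 74.3, 81.5 and 52.3 in knockout sedentary muscle. In trained muscle Cep85l reached 89.8, 251, 156, 140.4 and 149 CPM in vehicle and 55.6, 40.1 and 45.2 in knockout samples. No overlap was seen in either state, and the medians were 2.75-fold and 3.21-fold lower. Its locus overlaps that of Pln, phospholamban, the brake on the calcium pump of slow fibres, and Pln went the other way. In sedentary muscle Pln had 7.95, 7.71, 6.26, 6.67 and 8.18 CPM in vehicle and 14.1, 13.4, 17.5, 26.8 and 20.6 in knockout libraries. In trained muscle it had 5.89, 0.737, 3.89, 3.41 and 4.43 in vehicle and 23.4, 7.12 and 13.2 in knockout samples. Strandedness is not given in the sources used here, so reads of overlapping genes may not be told apart, and Pln was added after its values were seen.

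Channels, pumps and ion regulators made up 10 of the genes. Cacna2d4, an auxiliary subunit of voltage-gated calcium channels, had the lowest sedentary ratio of the 109. It had 12.4, 5.99, 8.72, 9.48 and 7.76 CPM in vehicle and 0.949, 0.532, 1.49, 1.65 and 1.08 in knockout sedentary muscle. Among trained samples, Cacna2d4 had 8.34, 0.396, 10.1, 5.92 and 12.1 in vehicle and 1.29, 2.45 and 0.751 in knockout muscle. The sedentary groups did not overlap, and in trained muscle vehicle library 2 was the lowest sample while the other vehicle libraries lay above every knockout sample. The medians were 5.82-fold and 5.27-fold lower. Lrtm2, a leucine-rich repeat membrane protein whose gene overlaps Cacna2d4, was 4.13-fold and 4.39-fold lower, and the pair may share reads.

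Slc12a2, the sodium-potassium-chloride cotransporter NKCC1, lay just inside the limit of the rule. It had 227, 181, 186, 164 and 218 CPM in vehicle and 106, 107, 96.8, 106 and 94.8 in knockout sedentary muscle. Trained vehicle libraries held 102, 305, 185, 159.6 and 159 and trained knockout samples 78.0, 61.7 and 59.2. The groups did not overlap in either state, with vehicle library 1 the lowest and library 2 the highest of the trained vehicle samples. Its fall was 1.75-fold in sedentary and 2.57-fold in trained muscle. Kcnab1, a beta subunit of potassium channels with an upstream E-box, was 2.48-fold and 2.81-fold lower. Nkain1, which interacts with the sodium pump, was 2.80-fold and 2.66-fold lower, and Itpr1, a calcium release channel of the endoplasmic reticulum, 2.44-fold and 2.87-fold. The others were the P5-type ATPase Atp13a5, the calcium channel gamma-like protein Tmem37, the calcium-binding protein Cib2, the kinase Wnk2, which regulates chloride cotransporters, and Neto2, an auxiliary protein of kainate receptors. All 10 had sedentary groups that did not overlap (3.77% of all tested genes). In trained muscle 3 did not overlap with vehicle trained library 2 (3.95% of all tested genes) and 10 without it (8.48%). By their symbols, 7 of 335 tested transporter, channel and histocompatibility genes were among the 109.

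Receptors, kinases and other signalling genes were 12. Ip6k3, the inositol hexakisphosphate kinase of muscle, had 46.3, 45.7, 39.9, 38.9 and 33.2 CPM in vehicle and 15.6, 15.0, 12.9, 15.0 and 15.5 in knockout sedentary muscle. After training, Ip6k3 stood at 42.7, 213, 37.1, 36.2 and 39.2 in vehicle and 16.8, 16.8 and 13.6 in knockout samples. Library 2 was again the highest vehicle sample by a wide margin, and the medians were 2.60-fold and 2.56-fold lower. The alpha-1A adrenergic receptor Adra1a was 2.49-fold and 3.02-fold lower, the nuclear receptor corepressor Nrip1 2.54-fold and 2.96-fold, and Met, the receptor of hepatocyte growth factor, 2.37-fold and 2.84-fold. Cntfr, the ciliary neurotrophic factor receptor, was 2.10-fold and 2.12-fold lower. The neurotensin receptor Ntsr2, the sorting receptor Sorcs1, the repressor Snai3 and 4 genes of kinase signalling (Grk3, Map2k6, Stk26 and the phosphatase Dusp14) completed the group. In this group 11 of 12 genes did not overlap in sedentary muscle (3.77% of all tested genes). In trained muscle 5 did not (3.95%), and 12 without vehicle trained library 2 (8.48%).

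Secreted, matrix and adhesion genes were 12 as well. Aebp1, a collagen-binding secreted protein, had 109.6, 141, 135, 113 and 129 CPM in vehicle and 36.9, 42.5, 40.9, 37.2 and 28.4 in knockout sedentary muscle. The trained levels of Aebp1 were 125, 183, 107, 178 and 124 in vehicle and 26.4, 32.6 and 30.3 in knockout samples. The groups did not overlap in either state, with vehicle library 2 the highest of all. The medians were 3.44-fold and 4.26-fold lower. Dkk3, a secreted protein of the dickkopf family, was 2.72-fold and 3.90-fold lower, and Tmem100, a membrane protein best known from endothelium, 2.28-fold and 4.97-fold. Tmem100 had 36.0, 38.9, 26.4, 28.1 and 21.3 CPM in vehicle and 9.28, 17.3, 15.8, 9.56 and 12.1 in knockout sedentary muscle. In trained muscle Tmem100 reached 36.5, 18.96, 23.1, 36.1 and 33.0 CPM in vehicle and 6.27, 15.1 and 6.11 in knockout samples. No knockout sample reached a vehicle sample, and vehicle trained library 2 was the lowest of the vehicle libraries. The gap between the 2 log2 ratios, -1.12, was the widest in that direction among the 109 genes. The 6 endothelial markers summed to 159 to 245 CPM in vehicle and 204 to 251 in knockout sedentary muscle, and to 157 to 212 and 164 to 255 in trained muscle, and their part in the level of Tmem100 was not tested. The BMP regulator Crim1, the collagens Col9a1 and Col24a1, the integrin Itga4, the cadherin Cdh4 and the membrane proteins Tmem132b and Rhbdl3 had ratios within the range of the group, -2.05 to -0.82 sedentary and -2.31 to -0.88 trained. The 5 fibroblast markers summed to 903 to 1971 CPM in vehicle and 1148 to 2114 in knockout sedentary muscle, and to 1499 to 2663 and 855 to 1868 in trained muscle, and their part in these levels was not tested.

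Cytoskeletal and vesicle genes numbered 10. Clip1, a protein that tracks growing microtubule ends, had 402, 391, 380.1, 335 and 373 CPM in vehicle and 174, 209, 187, 197 and 219.8 in knockout sedentary muscle. Among trained samples, Clip1 had 282, 840.3, 359, 374 and 338 in vehicle and 159, 141 and 135 in knockout muscle. The groups did not overlap, and the medians were 1.93-fold and 2.53-fold lower. Syt9, a synaptotagmin of calcium-triggered vesicle fusion, was 4.03-fold and 4.11-fold lower, from levels of 2.20 to 4.47 CPM in vehicle to 0.391 to 0.664 in knockout sedentary muscle. Rhobtb1, an atypical small GTPase with an upstream E-box, was 2.57-fold and 2.31-fold lower. Its gene overlaps the predicted gene A930033H14Rik, also among the 109. Mapre2, another microtubule end protein, the actin-related Actr3b, the kinesin Kif26b, and Rai14, Stxbp4, Mreg and Nhs made up the rest. None of the 10 genes overlapped in sedentary muscle, against 3.77% of all tested genes without overlap. Outside this group, Nrep, the neuronal regeneration-related protein, held 96.1, 1.39, 85.8, 104 and 95.2 CPM in the 5 vehicle trained libraries, one of the widest ranges among the 109, with library 2 at the bottom.

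Genes linked to immune or scavenging cells numbered 7. Ighg2c, an immunoglobulin heavy chain constant gene made by B-lineage cells, had 8.43, 4.26, 5.17, 10.4 and 3.54 CPM in vehicle and 0.738, 0.399, 1.10, 0.348 and 0.948 in knockout sedentary muscle. Trained vehicle libraries held 6.76, 5.02, 6.46, 6.95 and 10.6 and trained knockout samples 0.733, 3.59 and 0.374. The groups did not overlap in either state, and knockout trained library 2 was the highest of the knockout samples. Igkc, the kappa light chain constant gene, ran from 1.31 to 3.50 CPM in vehicle and from 0.608 to 1.66 in knockout sedentary muscle. It reached 181 in knockout trained library 2, where Jchain, the antibody joining chain, reached 63.1. In sedentary muscle Jchain ran from 0.916 to 2.35 in vehicle and from 0.52 to 1.99 in knockout libraries. Cd79a ran from 0.0522 to 0.200 and from 0 to 0.731, and Ighg2b from 0 to 0.0611 and from 0 to 0.174. Ighg1 was at 0 in all sedentary libraries. These genes were added after the values were seen. The T cell markers summed to 0.731 to 2.11 CPM over both sedentary groups.

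Ccl21b, a chemokine gene whose transcript is identical to those of 3 other genes and 99.5% identical to Ccl21a in M21, was 2.25-fold and 2.06-fold lower. Ifit3b, an interferon-induced gene 97.8% identical to Ifit3, was 1.75-fold and 2.59-fold lower. Both counts are uncertain for that reason. The Ccl21b groups overlapped in both states. It had 3.41 to 9.68 CPM in vehicle and 1.29 to 6.40 in knockout sedentary muscle, and 2.26 to 14.1 and 2.58 to 8.32 in trained muscle. Its trained ratio takes all 5 knockout trained libraries as separate. With the near-identical libraries summed, the fitted log2 change of Ccl21b in trained muscle was -0.61 (SE 0.534). The scavenger receptor Stab2, the TNF receptor family member Cd27, the interleukin 12 subunit Il12a and the caspase Casp12 were the others. In this group 5 of 7 genes did not overlap in sedentary muscle (3.77% of all tested genes). The macrophage markers summed to 53.7 to 224 CPM in vehicle and 84.5 to 236 in knockout sedentary muscle, and to 155 to 389.9 and 53.3 to 301 in trained muscle. The part of immune cells in these levels was not tested.

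Noncoding and predicted genes were a sizeable share. By GENCODE M21, 89 of the 109 genes are protein coding, 6 lincRNA and 5 processed pseudogenes, and 23 carry a predicted or RIKEN symbol. Outside the retrocopies, 19 predicted genes had log2 ratios of -1.94 to -0.82 in sedentary and -2.02 to -0.90 in trained muscle. Among them Gm17081 was 99.2% identical to Gm17167 and 99.1% to Gm13301, both also in the set, so these are not separate measurements. Gm21955 was 98.5% identical to Gm37530, and Gm45051 100% to 0610030E20Rik over 65.4% of its length. The counts of these genes are uncertain for that reason. 1700001O22Rik had 23.4, 18.3, 16.2, 16.3 and 19.5 CPM in vehicle and 3.06, 4.39, 5.72, 3.56 and 5.35 in knockout sedentary muscle. After training, 1700001O22Rik stood at 19.4, 17.1, 17.2, 17.1 and 27.3 in vehicle and 2.25, 6.80 and 4.08 in knockout samples. No groups overlapped. Its medians were 3.85-fold and 4.06-fold lower, and those of Gm21955 3.44-fold and 3.75-fold. Gm4841 had one of the 3 widest ranges among vehicle trained libraries, at 22.4, 0.264, 36.9, 45.9 and 62.6 CPM, again with library 2 at the bottom. The remaining 4 genes with ordinary symbols were the linker histone H1f4, Nrep, Nxpe3 and Odf3l2, with log2 ratios of -1.34 to -0.82 and -1.51 to -0.93. In all, 56 of the 109 genes overlap another M21 gene.

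Levels in CPM, which are not scaled to gene length, differed widely within the set. The vehicle sedentary median was 2 to 5 CPM for 26 genes, 5 to 10 for 21, 10 to 100 for 45 and over 100 for 17, from 2.06 to 3159 CPM. All 109 passed the filter on low counts (1 CPM or more in 5 or more of the 20 libraries). For the 26 lowest genes a change of a few counts moves the ratio, and the 0.5 added to each median pulls their ratios toward 0.

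Training is a comparison that the choice of genes did not use, though it shares the same libraries. In vehicle muscle none of the 109 genes was called by edgeR's quasi-likelihood test at an adjusted p of 0.05, and neither was any other tested gene (0% of 14359). At an unadjusted p under 0.05 there were 13 of the 109, 6 higher and 7 lower, against 15.2% of all tested genes. With vehicle trained library 2 left out there were 11, 1 higher and 10 lower, against 13% of all tested genes. DESeq2 called 15 genes and none of the 109, and limma none of the 109. The median fitted log2 change with training was -0.12 (range -0.85 to 0.99), against 0.03 for all tested genes, and without vehicle trained library 2 it was -0.03. The smallest p-values belonged to Oplah (log2 change -0.54, SE 0.175, edgeR adjusted p = 0.272, n = 5 and 5), Gm7993 (0.99, SE 0.369, edgeR adjusted p = 0.274, and 0.21 without vehicle trained library 2) and Tcap (-0.44, SE 0.172, edgeR adjusted p = 0.282).

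In knockout muscle the test also called none of the 109 genes and none of all tested genes (0%). At an unadjusted p under 0.05 there were 7 of the 109, 5 higher and 2 lower, against 9.69% of all tested genes. With vehicle trained library 2 left out there were 20, 9 higher and 11 lower, against 17.5%. With all samples DESeq2 called 198 genes and none of the 109, and limma none of the 109. The median log2 change was -0.04 (range -0.83 to 1.17), against -0.02 for all tested genes. The smallest p-values were those of Tst (0.48, SE 0.149, edgeR adjusted p = 0.246), Dkk3 (-0.83, SE 0.279, edgeR adjusted p = 0.294) and Cib2 (0.77, SE 0.281, edgeR adjusted p = 0.347). Without vehicle trained library 2 120 genes were called (0.836% of those tested) and still none of the 109. Their adjusted p in that fit was 0.0841 for Tst, 0.0825 for Dkk3 and 0.0662 for Cib2.

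The difference between the knockout effects of the 2 states, equal to the difference between the training effects, is built from the contrasts that the rule used, each bounded from one side. None of the 109 genes and no other gene passed (0% of those tested), with 8 of the 109 at an unadjusted p under 0.05, all higher, against 7.51% of all tested genes. DESeq2 called 26 genes and none of the 109, and limma none of the 109. The smallest p-values were those of Tst (0.63, SE 0.196, edgeR adjusted p = 0.606), Dgat2 (1.39, SE 0.512, edgeR adjusted p = 0.647) and Car3 (0.81, SE 0.305, edgeR adjusted p = 0.647). The wider fall of Tmem100 in trained muscle and the narrower one of Dgat2 were therefore not shown to differ between the states. Counts were also simulated gene by gene with the depth and spread of these samples. The test found 72 of 100 genes changed by 1 log2 unit in the vehicle training comparison and 62 of 100 in the knockout one. At 2 log2 units it found 96 of 100 in each. The changed genes had a mean of at least 2 CPM, and no simulated library stood apart as vehicle trained library 2 does. The shares may therefore not hold for the 109 genes, and training effects of 1 log2 unit or less may go undetected.

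**Figure D4:**
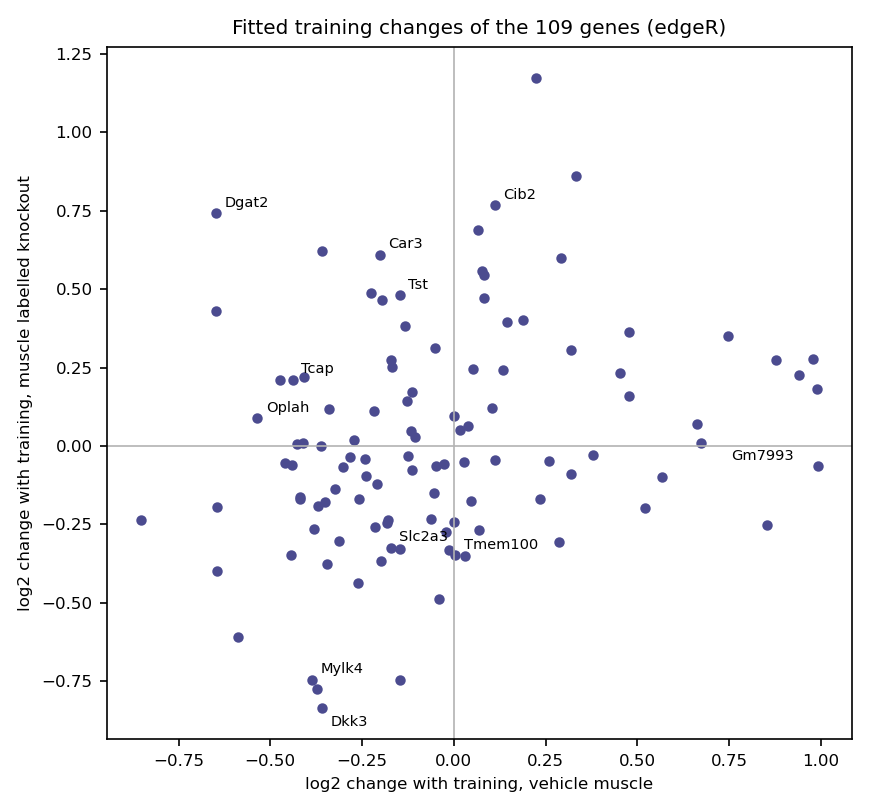
Fitted log2 change with training (edgeR) in vehicle (x axis) and knockout muscle (y axis) for the 109 genes, with grey lines at 0. The genes scatter around 0 with medians of -0.12 and -0.04, and none passed the adjusted threshold on either axis.

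The libraries set limits on the trained state in particular. Vehicle trained library 2 was below the other 4 vehicle trained libraries for 69 of the 109 genes (63.3%, against 45.1% of all tested genes), above them for 29 and within them for 11. It lay at or below the highest knockout trained sample for 53. The counts of 29, 11 and 53 have no share of all tested genes beside them and describe no trait of the 109. It was more than 2-fold below the median of the other 4 for 57 genes (52.3%, against 19.8%) and more than 2-fold above it for 18 (16.5%, against 10.6%). Its differences ran in both directions, as for Mylk4 at 50.3 CPM and Glul at 2518 CPM. With this library left out, 112 genes met the rule, among them all 109.

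Clock genes were left out of the set by name and are given as counts, apart from Arntl above and values of vehicle trained library 2. In that library Dbp had 5.48 CPM (103 to 129 in the other 4 vehicle trained libraries) and Per3 had 4.76 (41.8 to 55.7). Cry2 had 777 (55.4 to 66.6), while Per2, at 36.6, lay within the others (31.5 to 46.1). Whether this library was collected at another time of day was not tested. Of 19 listed clock genes tested, 6 were called lower and 2 higher in sedentary knockout muscle, and 5 lower and 1 higher in trained knockout muscle. Without vehicle trained library 2 the counts were 12 lower and 4 higher, and 11 lower and 5 higher. None was called in either training comparison. Of the transcription regulator list, 67 genes were tested and none was among the 109, and of 36 tested cell cycle and growth genes 2 were (Coq10b and Usp2). Over the first list the test called 2 lower and 1 higher in sedentary and 5 lower and 2 higher in trained muscle, and without vehicle trained library 2 10 lower and 5 higher, and 7 lower and 7 higher. Over the second it called 2 lower and 1 higher in sedentary and 3 lower and 1 higher in trained muscle, and without that library 5 lower and 5 higher, and 8 lower and 5 higher.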

How the data were processed

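RNA was measured in 20 libraries of mouse hindlimb muscle (4 groups of 5). The authors deposited estimated counts per gene, in a table named as CPM: its columns sum to different totals and 72.0% of its values are whole. The submitters' processing notes name Partek, STAR 2.7.8a, DESeq2 and the builds mm10 and GRCm39, without roles. The counting program, annotation and strandedness are not given in the sources used here. The table holds no column outside these samples.

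The genes and lists were chosen with earlier results of these data known. CPM were computed from the column sums. Of 190 pairs of libraries, 2 were counted as 1 sample each: their noise at high counts was at most 1.25 times that at low counts, and at least 2.31 times in other pairs (the limit was 1.5). They were summed for tests, which left 18 samples, but all 20 columns entered the medians of the rule. Counts were rounded and tested with edgeR 4.0.16 (R 4.3.3), TMM scaling, the quasi-likelihood test, 4 group means, genes with 1 CPM or more in 5 or more libraries (14359 genes), two-sided, with Benjamini-Hochberg adjustment over all tested genes and a threshold of 0.05. DESeq2 1.42.0 and limma 3.58.1 on log2(CPM + 1) were alternatives. TMM moved the median ratio of all genes by -0.04 (sedentary) and 0.06 (trained) on the log2 scale. The test was tried on simulated counts.

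Genes were named by a rule: the 12 lowest by the larger of both ratios, the 12 with the highest vehicle sedentary median, those on fixed lists, those nearest the limit, the 3 smallest p-values per training comparison and in the interaction, and the 3 widest ranges among vehicle trained libraries. Further genes are named by their role, assigned after the values were seen. Sequences are from RefSeq and GENCODE M21 (transcripts at least 95% identical over at least 50% of their length counted as copies). A few genes of the set are not reported here by name.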

Additional observations from a re-analysis of the deposited data

Results flagged for a closer look

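Among 25 named genes, 75 groups of 5 libraries were checked for a library far from the rest of its group, by a rule that chance meets in about 1 of 20 groups, and 9 were found, 6 of them vehicle trained library 2. In that library Hk2 had 1729 CPM (321 to 498 in the other 4), Glul 2518 (370 to 567), Odc1 604 (128 to 172), Clip1 840.3 (282 to 375) and Sorbs3 136 (55.3 to 73.9), all above, and Nrep had 1.39 (85.8 to 104), far below. Slc2a3 had 27.9 CPM in vehicle sedentary library 1 against 18.2 to 19.8 in the other 4. Usp2 had 286 CPM in vehicle sedentary library 4 against 348 to 374. 1700001O22Rik had 27.3 CPM in vehicle trained library 5 against 17.1 to 19.4. All 9 were vehicle libraries, but 2 of the 3 groups checked were vehicle groups, and the knockout trained group (n = 3) was too small to check. The 25 genes include the 3 chosen for the widest ranges among vehicle trained libraries, Nrep among them, and that choice favours such a flag. The 75 groups also share the same libraries from gene to gene. The 9 are therefore not read against 1 of 20.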

How the results depend on the processing

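No gene named for its training p-value changed direction in the alternatives run. The median training change of the 109 genes in knockout muscle (-0.04) ran from -0.12 to 0.04, and was 0.04 without knockout trained libraries 1 and 4 and 1.29e-05 without knockout sedentary library 3. The limit of the log2 ratio set the size of the gene set: 188 genes met it at -0.6 (all 109 among them) and 70 at -1. Leaving out 1 library at a time gave 102 to 112. The counts called by edgeR in the contrasts used by the rule moved most. In sedentary muscle 69 became 104 with only the sedentary groups in the fit and 59 to 106 with 1 sample left out (106 without vehicle trained library 2). In trained muscle 59 became 6 with only the trained groups, and 29 (without knockout trained libraries 3 and 5) to 97 (without vehicle trained library 2), with 36 without knockout trained libraries 1 and 4. Over all tested genes the share called lower moved too when vehicle trained library 2 was left out. It went from 1.31% to 3.84% in sedentary and from 1.3% to 3.64% in trained muscle. For the other settings that share is not given here, so nothing is read from these counts about the 109. The cause of these shifts was not tested. Genes whose trained groups do not overlap numbered 54 to 99 with 1 sample left out, an alternative added after seeing the data, and 99 is the value without vehicle trained library 2. In the training comparisons and the interaction 0 of the 109 genes were called in every alternative, with smallest adjusted p-values of 0.102 to 0.516, 0.0506 to 0.804 and 0.216 to 0.918. The share with an E-box was 11.8% at -0.6 and 11.9% at -1, and that with a D-box 3.15% and 0%. With the replicate number as a block (20 separate libraries), 72 and 76 were called in the sedentary and trained contrasts and 0 with training. The share of all tested genes is not given here for that fit either, so nothing is read from the 72 and 76. The numbers do not pair the samples: correlations of same-numbered libraries ran from -0.37 to 0.32, above 0.1 in 9 of 20 pairs. The depth, with 26 genes at 2 to 5 CPM, limits the precision of the lowest levels.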
